A study of Drosophila melanogaster with 2 samples.

Results

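The Unc-4-eGFP peaks described here are those whose nearest annotated gene start was that of a noncoding gene. Of 4899 peaks on nuclear chromosomes in the pooled list, 216 (4.41%, 95% Wilson interval 3.87 to 5.02) met this rule: the transcript start nearest to the summit belonged to a gene that is not protein coding and lay within 1 kb. Starts were those of the Ensembl BDGP6 annotation, all biotypes, and the coordinates are dm6. The rule took position only, so signal, replicate support and sequence were not used in choosing among the listed peaks. The pooled list itself was thresholded by irreproducible discovery rate, so every peak in it had already passed that filter. A further 4333 peaks had a coding start nearest within 1 kb and serve as the comparison, called coding-nearest peaks, and 350 peaks had no start within 1 kb. The material was whole Drosophila melanogaster embryos aged 6 to 18 h of the strain unc-4-GFP, in which an insertion targets unc-4, and chromatin bound by the eGFP fusion of the homeodomain factor Unc-4 was precipitated through its GFP tag. There were 2 biological replicates of this 1 group, all embryos carried the fusion, and control libraries were not analysed here. Chromatin was sonicated to 200 to 800 bp, and whole embryos mix the cells that make Unc-4 with those that do not. The files hold peaks and their signal but no read counts, so the depth is unknown, signals can be compared only within 1 list, and every interval given covers nothing beyond counting error. The peak lists held 3457 nuclear peaks in replicate 1 and 2960 in replicate 2.

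Noncoding genes are made by different machineries. Genes for tRNAs are short and are transcribed by RNA polymerase III from the A and B boxes inside the gene, and U6 snRNA, 7SK RNA and RNase MRP RNA are also polymerase III products, driven from upstream elements. The other spliceosomal snRNAs, long noncoding RNAs (lncRNAs) and antisense RNAs come from RNA polymerase II, often from promoters that fire in both directions. Many snoRNAs and miRNAs are cut out of longer transcripts, so their annotated start marks the end of a processed product and not the place where transcription begins. Unc-4 is a paired-type homeodomain protein known for its role in neurons, and TAATTA is the core that many homeodomains bind.

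Summit windows of strong peaks from several classes are printed first because they show which short elements lie under them. Each window has 50 bases on either side of the summit, is read in the direction of the noncoding gene and was taken from the RefSeq Release 6 genome, which is dm6. The windows were chr2L:9895085-9895185 on the minus strand for Uhg2, chr3R:7131049-7131149 on the minus strand for tRNA:Gly-TCC-1-2, chr3L:174666-174766 on the plus strand for asRNA:CR45806, and chrX:23007606-23007706 on the plus strand for asRNA:CR45009. They were chr3L:262856-262956 on the minus strand for snoRNA:Psi18S-996, chr3L:3411824-3411924 on the minus strand for mir-2282, and chrX:11578985-11579085 on the plus strand for lncRNA:roX2, which was added after its values were seen. Capitals mark every match, on either strand, to 1 of 10 motifs that were searched: TATCGA and TATCGATA (the DRE, bound by DREF), the homeodomain core TAATTA, the GAGA factor repeat GAGAGA, the Zelda-type site CAGGTA, the E-boxes CACGTG and CAGCTG, core promoter motif 1 as GGTCACAC, the tRNA B-box core GTTCGA and the TATA box as TATAAA.
Uhg2: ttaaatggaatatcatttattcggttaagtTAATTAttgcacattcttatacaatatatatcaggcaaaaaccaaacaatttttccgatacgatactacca
tRNA:Gly-TCC-1-2: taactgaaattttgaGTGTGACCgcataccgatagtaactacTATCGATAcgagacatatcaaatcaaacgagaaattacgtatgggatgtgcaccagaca
asRNA:CR45806: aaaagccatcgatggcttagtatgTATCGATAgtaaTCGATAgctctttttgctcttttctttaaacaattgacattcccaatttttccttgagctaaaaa
asRNA:CR45009: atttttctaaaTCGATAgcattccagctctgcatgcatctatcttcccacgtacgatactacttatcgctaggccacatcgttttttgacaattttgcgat
snoRNA:Psi18S-996: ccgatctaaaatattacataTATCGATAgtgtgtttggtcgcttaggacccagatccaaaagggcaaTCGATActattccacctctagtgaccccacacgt
mir-2282: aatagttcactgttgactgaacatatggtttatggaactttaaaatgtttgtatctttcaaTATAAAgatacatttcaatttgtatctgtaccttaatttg
lncRNA:roX2: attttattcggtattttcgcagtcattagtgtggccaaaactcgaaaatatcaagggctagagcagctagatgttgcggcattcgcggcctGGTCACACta
The windows of tRNA:Gly-TCC-1-2, asRNA:CR45806, asRNA:CR45009 and snoRNA:Psi18S-996 held TATCGA, and all of these but asRNA:CR45009 held the longer TATCGATA. TATCGATA contains TATCGA, so a TATCGATA match is also a TATCGA match. Uhg2, the strongest of the 216, held TAATTA and no DRE, and so did lncRNA:CR43650, the second strongest, whose window is not printed. The mir-2282 peak, at 136, is not the strongest of its class, which is that of mir-4978, at 195.

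The second set shows genes transcribed as short RNAs, with the bases inside the annotated gene in capitals, so that the place of the summit, the middle base, relative to the gene can be read. The windows were chr3L:8065963-8066063 on the minus strand for tRNA:Leu-CAG-1-6, chr3R:8139477-8139577 on the minus strand for tRNA:Asn-GTT-1-10, chr2L:14599622-14599722 on the plus strand for tRNA:Pro-AGG-1-4, and chr3R:7474793-7474893 on the minus strand for snRNA:7SKa. They were chr3R:24557124-24557224 on the plus strand for snRNA:U6:96Ac and chr3R:23730391-23730491 on the minus strand for RNaseMRP:RNA. All but snRNA:7SKa were chosen after their values were seen.
tRNA:Leu-CAG-1-6: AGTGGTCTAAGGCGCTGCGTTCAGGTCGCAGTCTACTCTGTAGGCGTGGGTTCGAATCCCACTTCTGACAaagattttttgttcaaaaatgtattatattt
tRNA:Asn-GTT-1-10: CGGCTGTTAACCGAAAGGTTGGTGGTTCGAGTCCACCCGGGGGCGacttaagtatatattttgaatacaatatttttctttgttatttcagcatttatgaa
tRNA:Pro-AGG-1-4: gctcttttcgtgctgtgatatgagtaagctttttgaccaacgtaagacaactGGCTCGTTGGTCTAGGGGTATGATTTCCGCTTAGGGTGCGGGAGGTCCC
snRNA:7SKa: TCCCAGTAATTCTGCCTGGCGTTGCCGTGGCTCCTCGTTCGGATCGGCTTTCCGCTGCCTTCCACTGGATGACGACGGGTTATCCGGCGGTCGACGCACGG
snRNA:U6:96Ac: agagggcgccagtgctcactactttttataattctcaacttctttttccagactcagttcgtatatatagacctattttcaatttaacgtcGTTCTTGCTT
RNaseMRP:RNA: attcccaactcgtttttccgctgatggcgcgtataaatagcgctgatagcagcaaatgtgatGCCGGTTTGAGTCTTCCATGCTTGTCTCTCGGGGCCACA
The tRNA:Leu and tRNA:Asn windows hold GTTCGA inside the gene, and the tRNA:Pro summit lay 2 bp before its gene. The snRNA:7SKa summit lay 153 bp inside the gene, and those of snRNA:U6:96Ac and RNaseMRP:RNA lay 41 and 12 bp before it.

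Genes for tRNAs supplied the largest class, with 75 of the 216 peaks at 70 genes. The next were lncRNAs with 58 peaks at 54 genes and antisense RNAs with 20 peaks at 19 genes. There were 8 snoRNA peaks, 4 miRNA peaks, 3 snRNA peaks and 3 peaks at other noncoding RNAs. No peak lay within 1 kb of any of the 99 annotated nuclear rRNA genes, which are repeated sequence where mapping is uncertain. The rule also took in 38 peaks at annotated transposable element insertions and 7 at pseudogenes, which are not RNA genes, so 171 of the 216 peaks (79.2%, 73.3 to 84.0) were at 161 genes for RNA. The 216 peaks overlapped one another in places and merged into 197 separate regions.

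The noncoding peaks were of middling signal. Their median was 92.8, with quartiles of 68.3 and 132 and a range of 2.16 to 980, against a median of 117, quartiles of 69.0 and 274 and a highest value of 1598 for coding-nearest peaks. The ratio of the medians was 0.791. Among the 100 strongest nuclear peaks 1 was nearest to a noncoding start, and among the 1000 strongest 12 were. The lower quartiles were alike and the upper ones were not. By class the median was 90.1 at tRNA genes, 86.6 at lncRNAs, 96.2 at snoRNAs and 99.7 at transposable elements.

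A coding start lay within 1 kb of 91 of the 216 summits (42.1%, 35.7 to 48.8), against 90.3% of all nuclear peaks, a value the rule itself lowers. The share was 25 of 75 at tRNA genes, 28 of 58 at lncRNAs, 13 of 20 at antisense RNAs and 14 of 38 at transposable elements. Where a coding start was that close, the 2 starts were divergent, on opposite strands and pointing away from each other, in 54 of 91 cases (59.3%, 49.1 to 68.9). This was so at 23 of 28 such lncRNA peaks and 10 of 13 such antisense peaks. None of the 20 antisense peaks had its nearest coding start on the same strand, which goes with the class. The layout of all annotated noncoding and coding starts this close was not counted, so these shares do not show a preference of the peaks. Where a coding start was within 1 kb, the summit cannot be given to the noncoding or to the coding gene.

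Counted over genes, the share with a summit nearby was highest for tRNA genes among the noncoding classes. Of 290 nuclear tRNA genes 126 (43.4%, 37.9 to 49.2) had a pooled summit within 1 kb of the start, beside 31.3% of all coding and RNA genes and 35.9% of coding genes. Many tRNA genes lie together, and these 126 genes shared 85 peaks, so the count at 100 bp is the closer one. At 100 bp it was 63 of 290 tRNA genes (21.7%, 17.4 to 26.8), beside 18.6% of all coding and RNA genes and 22.4% of coding genes. At 100 bp the share was 1.66% of 1987 lncRNA genes, 2.78% of 503 antisense RNA genes, 0.743% of 269 snoRNA genes and 0.769% of 260 miRNA genes. The tRNA share thus stood near that of coding genes, and these other classes lay under it. The tRNA share at 100 bp depended on the list: it was 9.66% (6.76 to 13.6) in that of replicate 1, beside 17.9% of coding genes, and 19.0% (14.9 to 23.9) in that of replicate 2, beside 15.6% of coding genes.

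The classes differed most in genes away from coding starts. Over all RNA genes, 153 of 2498 (6.12%, 5.25 to 7.13) with no coding start within 1 kb had a summit within 1 kb, against 304 of 1000 (30.4%, 27.6 to 33.3) with one, and the share without a coding start was 3.04% with the list of replicate 1 alone. Among tRNA genes with no coding start within 1 kb, 83 of 211 (39.3%, 33.0 to 46.1) had a summit within 1 kb, against 43 of 79 (54.4%, 43.5 to 65.0) of those with one. Among lncRNA genes the counts were 37 of 1544 (2.40%, 1.74 to 3.29) with no coding start within 1 kb and 90 of 443 (20.3%, 16.8 to 24.3) with one. Among antisense RNA genes they were 6 of 209 (2.87%) and 99 of 294 (33.7%). For snoRNA genes they were 14 of 184 (7.61%) and 41 of 85 (48.2%), and for miRNA genes 8 of 197 (4.06%) and 25 of 63 (39.7%). In these 4 classes most genes with a summit thus had a coding start nearby, and at tRNA genes most of those with a summit had none. For snRNA genes the counts were 4 of 27 (14.8%, 5.92 to 32.5) and 1 of 5. Taking each replicate's own list, the share of the 211 tRNA genes was 18.0% (13.4 to 23.8) in replicate 1 and 34.6% (28.5 to 41.2) in replicate 2, and that of the 1544 lncRNA genes was 1.17% and 1.10%. The closer count at 100 bp gave 41 of the 211 tRNA genes (19.4%, 14.7 to 25.3) in the pooled list, beside 22.4% of coding genes. It gave 8 of the 1544 lncRNA genes (0.518%). Genes are not replicates of a condition, so these shares were compared by their intervals and not by a test.

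**Figure D1:**
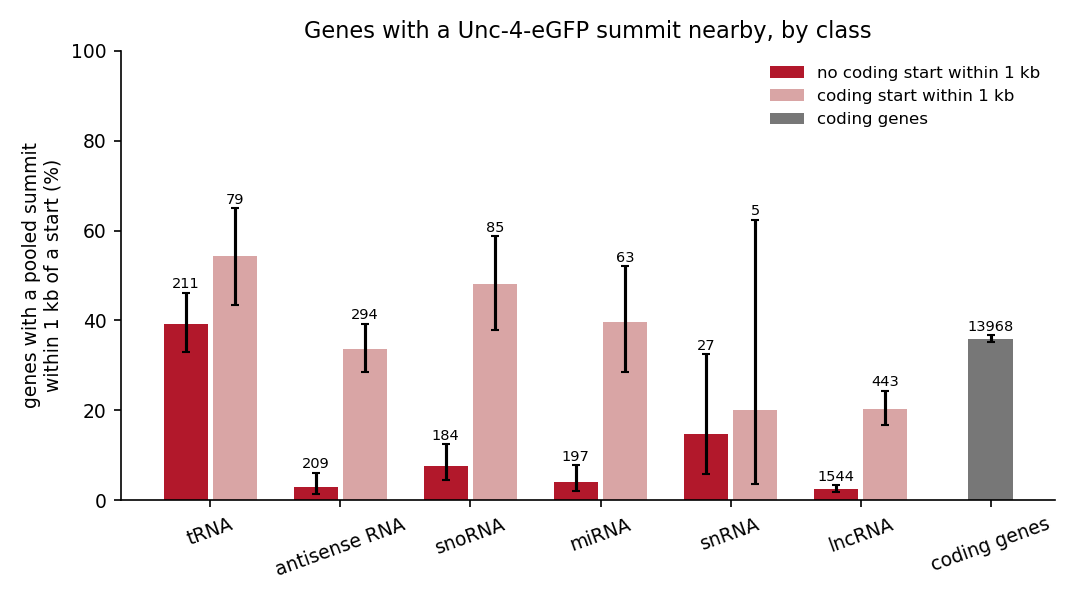
Percent of genes of each class with a pooled summit within 1 kb of a start, split by whether a coding start lies within 1 kb, with coding genes at the right; bars show the share, lines its 95% Wilson interval and numbers the genes counted. Among genes with no coding start nearby, tRNA genes stand at 39.3% and lncRNA genes at 2.40%. Counted at 100 bp, which is not plotted, these shares were 19.4% and 0.518%, beside 22.4% of coding genes.

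Most tRNA summits lay within 100 bp of the gene's start, inside the gene or beside it. Their median distance from the annotated start was 53 bp and their median position 33 bp downstream, with quartiles of -21.5 and 63 bp. The genes had a median length of 73 bp, 34 of the 75 summits (45.3%, 34.6 to 56.6) fell inside the gene, 28 lay upstream of the start, and 62 of 75 (82.7%, 72.6 to 89.6) lay within 100 bp of the start. Coding-nearest summits had a median position 36 bp upstream, and 2884 of 4333 (66.6%, 65.1 to 67.9) lay within 100 bp. Summits at lncRNAs were spread more widely, at a median distance of 144 bp, with 22 of 58 within 100 bp. Summits at snoRNAs lay mostly before the annotated start, 7 of 8, with a median of 105 bp upstream.

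**Figure D2:**
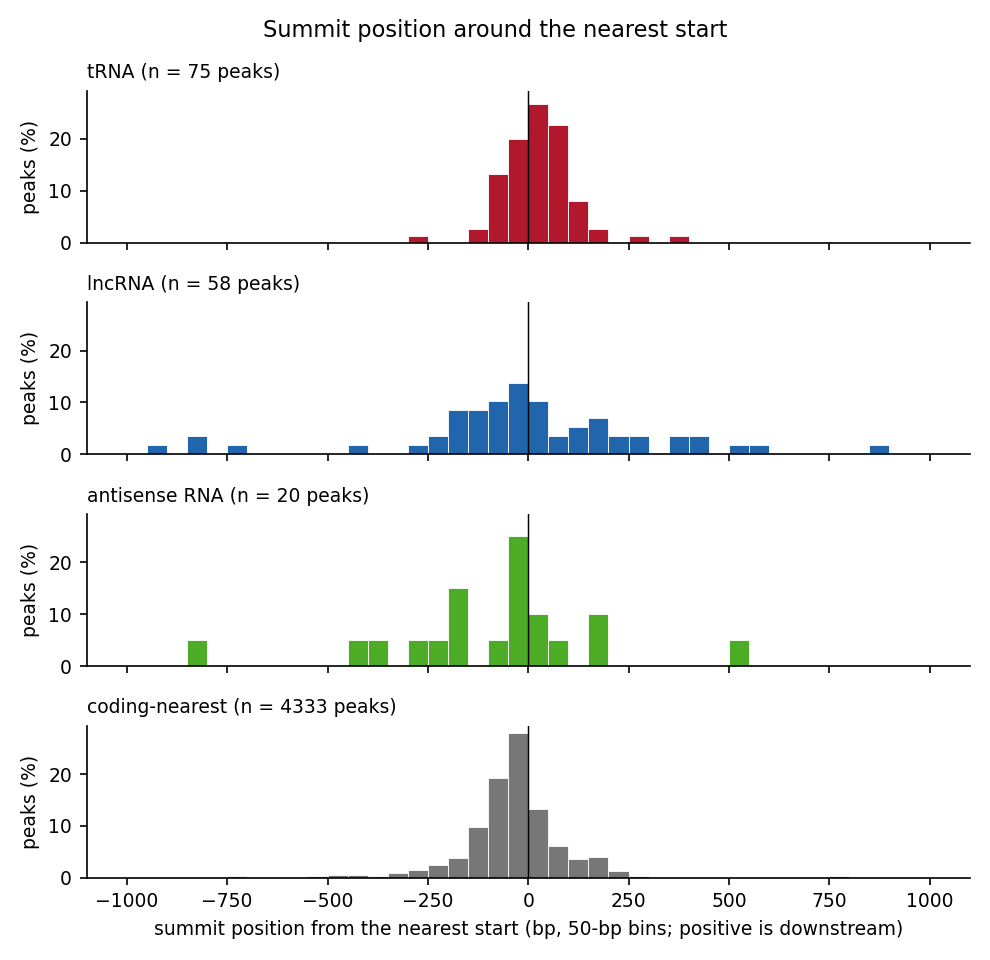
Percent of peaks in each 50-bp bin of summit position from the nearest start, with the start at 0 and downstream to the right, for tRNA, lncRNA and antisense RNA peaks and, at the bottom, coding-nearest peaks. The tRNA peaks centre just downstream of the start, at a median of 33 bp, and coding-nearest peaks just upstream, at a median of -36 bp.

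The tRNA peaks covered 21 of the 22 tRNA kinds in the annotation, counting initiator and elongator methionine apart, and left out selenocysteine, which has 1 gene. Within 100 bp of a summit were 8 of 22 Leu genes, 5 of 11 Ile genes, 4 of 10 Asn genes, 5 of 17 Pro genes and 5 of 20 each of the Gly and Ser genes. At the low end were 1 of 19 Glu genes and 1 of 17 Ala genes. With so few genes per kind the intervals were wide, from 21.3% to 72.0% for Ile and from 0.935% to 24.6% for Glu.

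The tRNA genes with and without a summit within 100 bp were compared in 3 features. GTTCGA lay inside 41 of 63 genes with a summit (65.1%, 52.8 to 75.7) and 121 of 227 without one (53.3%, 46.8 to 59.7). Another tRNA gene lay within 1 kb of 41 of 63 with a summit (65.1%, 52.8 to 75.7) and 142 of 227 without (62.6%, 56.1 to 68.6). A coding start lay within 1 kb of 22 of 63 with a summit (34.9%, 24.3 to 47.2) and 57 of 227 without (25.1%, 19.9 to 31.1). The intervals of each pair overlapped.

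Where a pair of replicate values follows a signal, replicate 1 comes first. The strongest tRNA peak was that of tRNA:Gly-TCC-1-2, at a pooled signal of 548, with 384 for replicate 1 and 162 for replicate 2. It stood apart from the other tRNA peaks by its signal and by a TATCGATA in its window, found in 1 of 75. Its summit was 81 bp upstream of the gene and 461 bp from the divergent start of CG31493. Its position was shared by others: 28 of 75 summits lay upstream. Of the 25 tRNA peaks with a coding start within 1 kb, 7 had a divergent one. The next strongest was tRNA:Trp-CCA-2-2 at 205, with 128 in replicate 1 and 70.1 in replicate 2. Its summit fell on the first base of the gene. tRNA:Gln-TTG-1-3 followed at 189, with 114 in replicate 1 and 69.9 in replicate 2, and both of these had a divergent coding start within 1 kb. The strongest tRNA peak with no coding start within 1 kb was at tRNA:Asn-GTT-1-8 at 186, with 100 in replicate 1 and 87.1 in replicate 2. tRNA:Leu-AAG-1-3 had 176, with 89.5 in replicate 1 and 86.2 in replicate 2. Of the genes whose windows are printed above, tRNA:Pro-AGG-1-4 had 120, with 64.6 in replicate 1 and 62.9 in replicate 2, tRNA:Leu-CAG-1-6 had 98.4, with 50.8 and 37.2, and tRNA:Asn-GTT-1-10 had 97.3, with 44.6 and 46.7. Over all 75 tRNA peaks the quartiles were 70.6 and 119, and the range was 4.87 to 548.

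The 2 replicates did not support the tRNA peaks equally. A thresholded peak of replicate 1 overlapped 33 of the 75 (44.0%, 33.3 to 55.3), beside 72.4% of all nuclear peaks. One of replicate 2 overlapped 57 of 75 (76.0%, 65.2 to 84.2), beside 63.4% of all nuclear peaks. Nuclear peaks as a whole were thus overlapped more often in replicate 1, and tRNA peaks more often in replicate 2. Both replicates overlapped 27 of 75 (36%, 26.1 to 47.3), beside 55.7% of all nuclear peaks, and the conservative pooled list overlapped 63 of 75 (84.0%, 74.1 to 90.6), beside 85.0%. For all 216 noncoding peaks the counts were 108 in replicate 1, 138 (63.9%) in replicate 2, 79 (36.6%, 30.4 to 43.2) in both and 177 (81.9%) in the conservative list. In neither replicate were 49 (22.7%, 17.6 to 28.7), beside 19.8% of all nuclear peaks.

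For the replicates taken singly, the same order held at equal pooled signal. In the band from 70.6 to 119, replicate 1 overlapped 14 of 37 tRNA peaks (37.8%, 24.1 to 53.9) and 682 of 1074 coding-nearest peaks (63.5%, 60.6 to 66.3). In that band replicate 2 overlapped 28 of 37 tRNA peaks (75.7%, 59.9 to 86.6) and 472 of 1074 coding-nearest peaks (43.9%, 41.0 to 46.9). Both replicates overlapped 10 of 37 tRNA peaks there (27.0%, 15.4 to 43.0) and 317 of 1074 coding-nearest peaks (29.5%, 26.9 to 32.3). The lower share of tRNA peaks in both replicates was thus not seen at equal signal. Ranking all pooled nuclear peaks by the signal of each replicate gave tRNA peaks a median percentile of 33.6 in replicate 1 and 57.0 in replicate 2, and coding-nearest peaks 53.7 in replicate 1 and 52.2 in replicate 2. Of the 62 tRNA peaks with a summit of each replicate within 100 bp, 59 (95.2%, 86.7 to 98.3) ranked higher in replicate 2. Of 3508 such coding-nearest peaks 1838 (52.4%, 50.7 to 54) did. Peaks with no summit of a replicate within 100 bp were ranked lowest there, 450 in replicate 1 and 731 in replicate 2. This lifts the percentiles of weak peaks present in both, more so in replicate 2. A higher rank in replicate 2 was not limited to tRNA peaks. It was found for 28 of 33 transposable element peaks (84.8%, 69.1 to 93.3) and 147 of 181 noncoding peaks in all (81.2%, 74.9 to 86.2). Counts were 12 of 17 antisense peaks (70.6%, 46.9 to 86.7) and 31 of 49 lncRNA peaks (63.3%, 49.3 to 75.3). These 2 intervals include the coding-nearest share. The median percentile of lncRNA peaks was 41.6 in replicate 1 and 40.8 in replicate 2. With 1 library on each side, whether the higher ranks come from the embryos, the precipitation or the sequencing cannot be told apart.

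**Figure D3:**
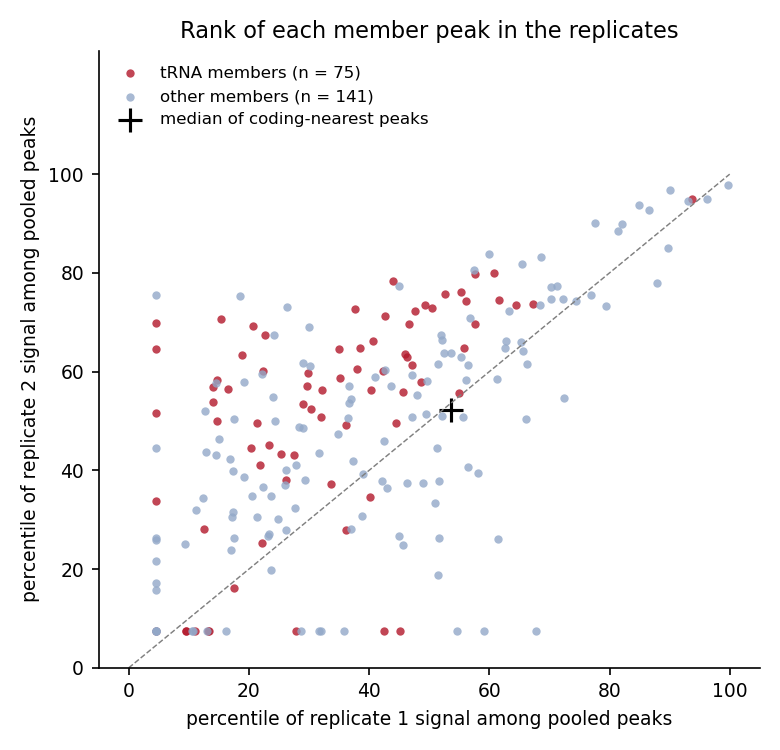
Percentile of each of the 216 noncoding peaks among the pooled nuclear peaks, ranked by replicate 1 signal (x axis) and by replicate 2 signal (y axis); red points are the 75 tRNA peaks, blue points the other 141, the cross the median of coding-nearest peaks and the dashed line equal rank. Most red points lie above the line, and points in straight rows at the left and bottom edges had no summit of that replicate within 100 bp.

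Joining tRNA peaks no more than 20 kb apart gave 46 groups, of which 26 were single peaks and 7 held 3 or more. The largest group, on 2R, held 5 peaks across 48021 bp that has 19 tRNA genes, with signals of 77.3 to 186. It includes tRNA:Lys-CTT-1-1, inside the ecdysone receptor gene EcR, at 155, and tRNA:Lys-CTT-1-5 at 175. Of the 75 tRNA peaks 33 (44.0%, 33.3 to 55.3) were on 2R, against 21.3% of coding-nearest peaks, and 1 was on X, against 18.7%. How all nuclear tRNA genes divide among the chromosomes was not counted here, so these shares do not show a preference of the peaks. On 3L, 3 tRNA peaks lay within 1809 bp of each other among 6 tRNA genes in the Cht7 gene. These were at tRNA:Cys-GCA-1-1 with 76.5, tRNA:Lys-CTT-1-12 with 116 and tRNA:Cys-GCA-1-4 with 58.8. The peak at snRNA:U5:63BC, with 69.0, lay between PAN3 and Cht7, its summit 71 bp before the U5 start, and the first tRNA summit was 4962 bp after that start. No other pooled peak lay in the stretch plotted.

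**Figure D4:**
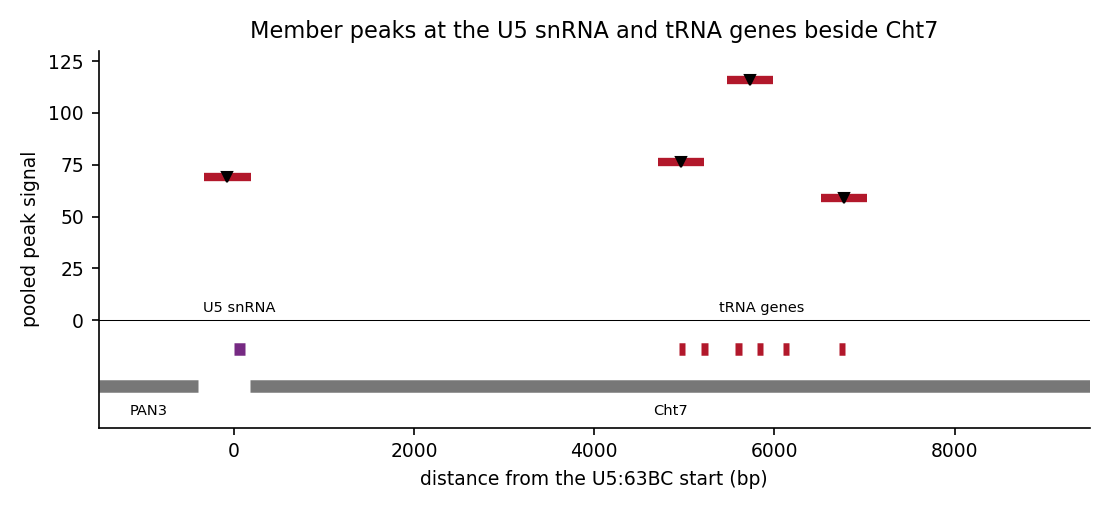
Pooled peaks on chromosome 3L around the U5:63BC snRNA gene, in bp from its start; red bars are peak widths at the height of their signal, triangles are summits, and the boxes below are snRNA, tRNA and coding genes. The 4 peaks have signals of 58.8 to 116 and lie over the snRNA and tRNA genes, while the rest of the Cht7 stretch has none.

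The strongest peak of all 216 was at Uhg2, a host gene whose introns carry snoRNAs, with a signal of 980, 781 in replicate 1 and 203 in replicate 2. The summit was 132 bp upstream of Uhg2 and 152 bp from the divergent start of Bka, between the 2 genes. Of the 7 host genes listed, Uhg1 and Uhg8 also had a summit within 1 kb, at signals of 72.1 and 77.9. That made 3 of 7 (42.9%), beside 6.39% of all lncRNA genes and 20.3% of those with a coding start within 1 kb. Uhg1, Uhg2 and Uhg8 each had a coding start within 1 kb, and so did Uhg4 and Uhg5, which had no summit that near. Many of the strongest lncRNA peaks also had a divergent coding start close by, though not all lay between 2 genes. lncRNA:CR45473 and lncRNA:CR43496 lie inside the annotated spans of tyn and sov, on the opposite strand. lncRNA:CR45473 had 376, with 295 in replicate 1 and 81.0 in replicate 2, exactly at its start and 11 bp from that of tyn. lncRNA:CR45475 had 295, with 211 and 69.4, lncRNA:CR43496 beside sov had 267, with 189 and 75.5, and lncRNA:CR44784 had 256, with 172 and 72.1. Their coding neighbours started 42 to 209 bp from the summit, all divergent. lncRNA:CR44127, with 320, had its nearest coding start 945 bp away on the same strand.

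A few lncRNA peaks were strong with no coding start near. lncRNA:CR43650 was second of all 216, at 606, with 449 in replicate 1 and 162 in replicate 2, and the nearest coding start was 3650 bp off. Its summit lay inside the annotated gene, 167 bp upstream of an internal transcript start. This gene spans mir-8, the fly member of the miR-200 family, whose hairpin began 910 bp from the summit. The peak at lncRNA:CR45911, of 64.1, with 25.7 in replicate 1 and 44.5 in replicate 2, was 85 bp downstream of the start of a transcript that spans mir-2c, mir-13a and mir-13b-1, whose hairpins began 2780 to 3150 bp from the summit. lncRNA:CR43838 had 355, with 235 in replicate 1 and 129 in replicate 2, and its nearest coding start was 14772 bp away. lncRNA:roX2, which guides dosage compensation of the male X, had 104, with 65.1 in replicate 1 and 38.5 in replicate 2, at 30 bp upstream. The other roX gene, lncRNA:roX1, had its nearest summit at 50525 bp. None of 7 listed lncRNAs of stress and development, such as lncRNA:Hsromega, lncRNA:bxd and lncRNA:iab8, had a pooled summit within 1 kb, the nearest being 6895 bp from lncRNA:Hsromega. The share was 6.39% over all lncRNA genes, so a count of 0 in 7 does not set these genes apart. The ranked lists of the single replicates did give lncRNA:Hsromega signals, 169 in replicate 1 and 60.7 in replicate 2, the highest of the 7. The count thus concerns pooled summits near a start only.

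The antisense RNA peaks, a class named by the RefSeq annotation, included 3 of the strongest 7. Of these 20 peaks, 10 had their gene wholly inside a coding gene on the opposite strand. asRNA:CR45806, inside CG7049, had 524, with 368 in replicate 1 and 156 in replicate 2, 422 bp upstream of its start. asRNA:CR45009 had 488, with 320 in replicate 1 and 183 in replicate 2, 16 bp upstream of its start and 3008 bp from that of stnB, a synaptic vesicle gene. asRNA:CR45891 had 425, with 279 in replicate 1 and 143 in replicate 2, with the divergent start of alpha-Man-IIb 529 bp away. asRNA:CR46453, inside CG12134, followed at 231, with 158 in replicate 1 and 73.0 in replicate 2. The 7 antisense peaks with no coding start within 1 kb had a median of 171, and the 13 with one had a median of 94.7. Both sets spanned a wide range, from 2.16 to 524 and from 13.1 to 425.

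Among snRNA genes 5 of 32 (15.6%, 6.86 to 31.8) had a summit within 1 kb, near the 13.1% of all RNA genes. The share was 31.3% over all coding and RNA genes. Of the 5, snRNA:U5:35D lay 671 bp from a summit that was nearest to the coding gene ND-B17. snRNA:7SKa, whose RNA holds the elongation factor P-TEFb inactive, had 196, with 107 in replicate 1 and 56.7 in replicate 2. Its copy snRNA:7SKb had no summit within 58306 bp. snRNA:U6:96Ac, the last of 3 adjacent U6 genes, had 93.3, with 43.9 in replicate 1 and 49.0 in replicate 2, and the summit was 482 bp from snRNA:U6:96Ab and 1086 bp from snRNA:U6:96Aa. These 3 copies are near-identical, and how reads were shared among them is not given in the sources used here. snRNA:U5:63BC had 69.0, with 41.4 in replicate 1 and 31.0 in replicate 2. No U1, U2 or U4 gene had a pooled summit within 1 kb, the nearest being 3446 bp from snRNA:U4:39B. The ranked replicate lists gave snRNA:U1:95Ca signals of 55.5 in replicate 1 and 26.3 in replicate 2, and no other of these genes had both. RNaseMRP:RNA, which helps cut ribosomal RNA precursors, had 91.3, with 58.5 in replicate 1 and 35.1 in replicate 2. RNaseP:RNA had its nearest summit at 4048 bp and the 7SL genes at over 60 kb, 60801 bp being the nearest. Of the snRNA genes that a peak was nearest to, U6 and 7SKa are polymerase III genes and U5 is a polymerase II gene.

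The strongest snoRNA peak, at snoRNA:Psi18S-996 in an intron of Tudor-SN, had 427, with 316 in replicate 1 and 104 in replicate 2. Its summit was 953 bp upstream, at the edge of what the rule allows. snoRNA:Psi18S-176 had 239, with 136 and 96.9, snoRNA:Psi28S-3342 had 141, with 61.7 and 79.2, and snoRNA:Or-aca4 had 107, with 75.4 in replicate 2 and no summit within 100 bp in replicate 1. The miRNA peaks were at mir-4978 (195, with 97.2 and 98.9), mir-2282 (136, with 101 and 45.4), mir-9377 (78.0, with 41.3 and 29.0) and mir-314 (63.2, with 30.5 and 18.6). mir-2282 lies in sty and mir-9377 in Tis11, on the strand of the gene. The annotated entries of these 2 that the rule used are mature products, of 22 and 21 bp, named here by their hairpin, so their starts are those of the mature RNA. Of 27 listed miRNA hairpins 2 had a summit within 1 kb (7.41%), mir-8 and mir-92a, beside 33 of all 260 miRNA genes (12.7%, 9.18 to 17.3). The peak by mir-92a, at 556 bp, was nearest to the coding gene jigr1. The listed mir-1, mir-124, mir-9a and mir-ban had their nearest summits at 59801, 65223, 12791 and 6286 bp. The 3 peaks at other noncoding RNAs were at sncRNA:CR43701 (126), RNaseMRP:RNA (91.3) and hpRNA:CR18854 (83.4).

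Among transposable element peaks, INE-1 was the family with the most, 17 of 38, and it is also the most abundant in the annotation, with 2235 of 5889 annotated nuclear insertions. jockey followed with 3 and 1360 with 2. The strongest were INE-1{}4826 at 408, with 261 in replicate 1 and 151 in replicate 2, I{}2832 at 348, with 230 and 121, INE-1{}3556 at 220, with 146 and 78.7, and 1360{}1925 at 210, with 136 and 70.1. Of 5889 insertions 163 (2.77%, 2.38 to 3.22) had a summit within 1 kb, and 41 of 5159 (0.795%, 0.586 to 1.08) did with no coding start within 1 kb. The strongest pseudogene peaks were CR14117 at 226, CR44383 at 126, CR31032 at 108 and CR12842 at 98.3. Insertions are repeated in the genome, and how reads with many matches were placed is not given in the sources used here.

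The sequence under the noncoding peaks differed by class. A window reached 50 bp to each side of the summit, and 29 of 216 held TATCGA (13.4%, 9.51 to 18.6), against 34.8% (33.4 to 36.3) of coding-nearest peaks and 32.1% of all nuclear peaks. At tRNA genes it was 2 of 75 (2.67%, 0.734 to 9.21), at lncRNAs 9 of 58 (15.5%, 8.38 to 26.9) and at antisense RNAs 7 of 20 (35.0%, 18.1 to 56.7). In the signal band from 70.6 to 119 it was in 1 of 37 tRNA peaks (2.70%, 0.479 to 13.8), 1 of 21 lncRNA peaks (4.76%, 0.846 to 22.7) and 193 of 1074 coding-nearest peaks (18.0%, 15.8 to 20.4). In windows of the same length at gene starts, TATCGA was in 16.1% of coding genes, 8.62% of tRNA genes and 3.52% of lncRNA genes. The share in tRNA peaks was thus under those of coding-nearest peaks, both pooled and within the band, while its interval included the share at tRNA starts. In the list of replicate 1 alone, 30 of 113 noncoding peaks (26.5%, 19.3 to 35.4) held TATCGA, against 43.2% (41.5 to 44.9) of coding-nearest peaks, and 1 of 32 tRNA peaks did. The lncRNA share moved more: it was 10 of 29 (34.5%, 19.9 to 52.7) in the list of replicate 1 and 9 of 31 (29.0%, 16.1 to 46.6) in that of replicate 2, against 43.2% and 45.2% of coding-nearest peaks, and these 2 intervals include the coding-nearest share. Antisense peaks had it in 7 of 14 (50%, 26.8 to 73.2) in replicate 1 and 6 of 11 (54.5%, 28.0 to 78.7) in replicate 2.

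GTTCGA was more frequent at tRNA genes. It was in 25 of 75 tRNA peaks (33.3%, 23.7 to 44.6), 32 of all 216 (14.8%, 10.7 to 20.2) and 5.24% (4.61 to 5.94) of coding-nearest peaks. At the other large classes it was in 2 of 58 lncRNA peaks (3.45%), 0 of 20 antisense peaks (an interval up to 16.1%) and 2 of 38 transposable element peaks (5.26%), so the tRNA peaks supply most of the 32. Since GTTCGA is part of many tRNA genes, a summit over the gene brings it into the window. In the 48 tRNA peaks at genes with GTTCGA, the median summit lay 29 bp before the centre of the motif, and 25 summits lay within 50 bp of it. GAGAGA was in 10 of 58 lncRNA peaks (17.2%, 9.64 to 28.9), 6 of 38 transposable element peaks (15.8%, 7.44 to 30.4) and 2 of 75 tRNA peaks (2.67%, 0.734 to 9.21), against 5.68% (5.03 to 6.41) of coding-nearest peaks. CAGCTG was in 7 of 216 (3.24%), against 10.3% (9.45 to 11.3) of coding-nearest peaks. A similar gap was present at gene starts with or without a peak, where CAGCTG was in 3.49% of RNA genes and 9.33% of coding genes. TAATTA was in 13 of 216 (6.02%), against 5.82%, TATAAA in 28 of 216 (13%, 9.12 to 18.1), against 12.6%, and GGTCACAC in 6 of 216 (2.78%, 1.28 to 5.93), against 4.38%. CAGGTA and CACGTG were in 4 and 3 of the 216, against 2.05% and 1.66% of coding-nearest peaks. Motifs in the 350 peaks with no start within 1 kb were not counted apart. The GAGAGA and TATCGA shares are therefore not shown to be particular to noncoding peaks. A match is only a run of letters and does not show that a factor was bound.

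**Figure D5:**
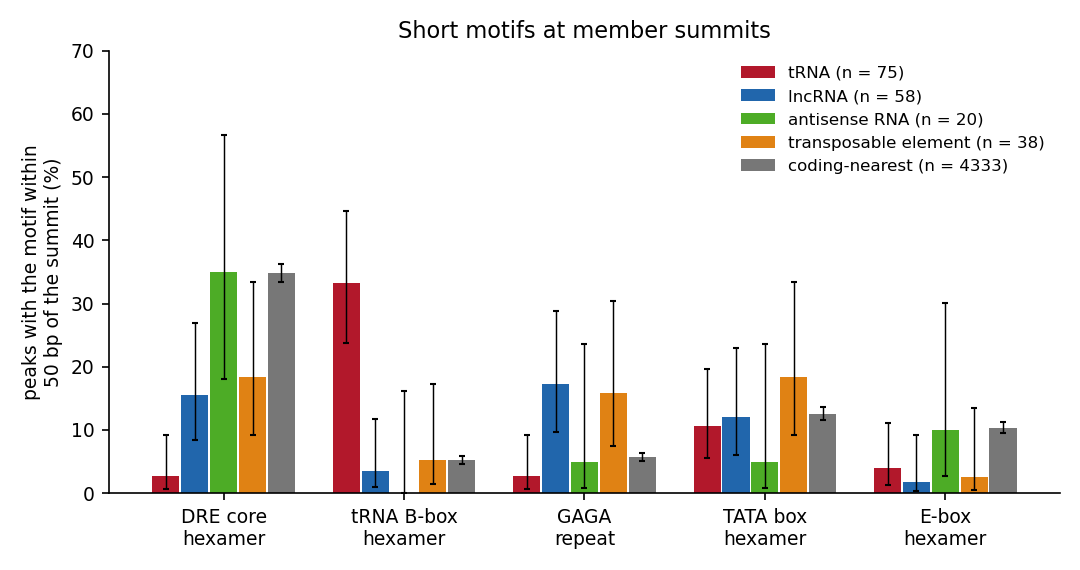
Percent of peaks with each of 5 short motifs within 50 bp of the summit, for tRNA, lncRNA, antisense RNA and transposable element peaks and, in grey, coding-nearest peaks; lines are 95% Wilson intervals. The DRE core hexamer (TATCGA) is in 2.67% of tRNA peaks and 34.8% of coding-nearest peaks, and the B-box hexamer (GTTCGA) in 33.3% and 5.24%.

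Near the limit of 1 kb, the 3 peaks just inside were at mir-4978 (981 bp, signal 195), H{}1737 (964 bp, 205) and snoRNA:Psi18S-996 (953 bp, 427). The 3 just outside were at Tirant{}917 (1012 bp, 74.9), lncRNA:CR44985 (1028 bp, 47.5) and lncRNA:CR44868 (1033 bp, 63.7), each weaker than the 3 inside.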

How the data were processed

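ChIP-seq peaks of Unc-4-eGFP came from 2 biological replicates of 1 group of embryos. The deposited lists hold a signal value and a summit offset (of unit other, in bp) per peak. The authors thresholded peaks by irreproducible discovery rate, per replicate and for both replicates together, on dm6, per the notes deposited with the lists. The peak caller and aligner remain unnamed (not given in the sources used here). Here, 6 lists were read and peaks off the nuclear chromosomes left out. Summits were assigned to the nearest transcript start of Ensembl release 115 (BDGP6), a tie with a coding start counting as coding (4 peaks). All 290 nuclear tRNA genes had the same coordinates in the RefSeq Release 6 annotation. Replicate overlap meant at least 1 bp with a thresholded peak. Replicate signals are those of the ranked peak with the nearest summit within 100 bp. Motifs were searched on both strands within 50 bp. Shares carry 95% Wilson intervals. Scripts used python 3.11.15, numpy 2.4.6, pandas 2.3.3 and scipy 1.17.1 and were tested on simulated data. Named peaks were the strongest, those with no coding start within 1 kb, the strongest of each class, and listed genes. The members and lists were chosen with earlier results of these data known. No test was made, since there was 1 group and neither peaks nor genes are replicates.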

Additional observations from a re-analysis of the deposited data

How the results depend on the processing

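Of 68 alternative values 47 stayed within the interval or replicate spread of the value reported, and 21 moved outside it. The median summit offset from the noncoding start was 0 bp, and lay on opposite sides of the start with single replicates, at 21.0 bp without replicate 1 and -10.0 bp without replicate 2. No paired analysis was possible because there was 1 group. The share of peaks nearest to a noncoding start was 3.27% to 5.0% when a single replicate's list was used, 3.14% among pooled peaks at or above the median signal and 3.67% with transposable elements left out of the annotation (an alternative chosen after seeing the data, as were those for tRNA genes). The ratio of median signals was 0.611 to 0.776 with single replicates, 0.630 above the median signal and 0.665 with overlapping peaks merged. Overlap in both replicates was 25.9% at 50% reciprocal overlap and 29.6% with summits within 100 bp. TATCGA was in 17.6% of noncoding peaks without replicate 1, against 45.2% of coding-nearest peaks, and in 26.5% without replicate 2, against 43.2%. It was in 28.6% above the median signal, against 54.8%, and in 9.26% within 25 bp, against 21.9%. The share of RNA genes with a summit within 1 kb was 9.01% to 9.58% with single replicates, 7.03% above the median signal and 8.55% within 500 bp. Without a coding start within 1 kb it was 3.04% to 4.52%, 2.16% and 4.76%. The share of tRNA genes with a summit within 100 bp was 9.66% without replicate 2 and 19.0% without replicate 1, and 7.59% above the median signal, so it rests largely on replicate 2. The causes were not tested. Peak lists carry no counts, so how depth limits these values is unknown.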
